A study of Mus musculus with 6 samples.

Results

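Chemokines are small secreted proteins that guide leukocytes and some stem cells along a gradient. They act on chemokine receptors, which span the cell membrane and signal through G proteins of the Gi class. The ligands are named after the spacing of their first cysteines (Ccl, Cxcl, Cx3cl and Xcl), and the receptors are named after the ligands they bind. Some members are made without a stimulus and set where cells reside, such as Cxcl12 and Ccl25, while others are induced by inflammation, such as Cxcl10 and Ccl2. In the testis, whose tissue holds resident macrophages between the tubules and few lymphocytes, Cxcl12 is known as a signal from Sertoli cells to spermatogonia that carry its receptor Cxcr4.

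All probes whose gene symbol begins with 1 of these ligand or receptor stems and a number were taken, which gave 54 of the 19057 genes named on the array, 36 for ligands and 18 for receptors, read by 79 of its 45281 probes. RNA came from the whole testis of 6 C57Bl/6 males at 4 months of age, and each mouse had its own Illumina MouseWG-6 v2.0 BeadChip array. Mice 1, 2 and 5 had a standard diet (SD), and mice 3, 4 and 6 had a high-fat diet that the study calls Western-like (WD) and that is rich in butter and sucrose. No mouse carried a transgene or had another treatment per the labels. Within a diet, mice were picked at random once those with the strongest response had been left out, so the WD arrays hold none of these. Levels are given below as normalized log2 intensity, and a probe was called detected on an array where its signal stood above the negative controls with a detection p under 0.05. The level of a probe depends on its own sequence, so levels are compared between mice within a probe and never between genes.

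The testis label fitted most markers of the tissue. All 5 spermatid markers and all 5 Leydig cell markers on the array were detected on all 6 arrays, while 0 of 3 B cell markers and 0 of 2 epididymis markers were detected. On at least 3 arrays, 5 of 6 Sertoli markers were detected, without Amh. It was 3 of 5 for spermatocyte (without Sycp3 and Dmc1), spermatogonia (without Gfra1 and Zbtb16), peritubular and endothelial markers. Each array detected between 19026 and 21309 probes, and arrays correlated at 0.983 to 0.9926. Mice 5 and 6, 1 of each diet, had lower raw medians (126.2 and 120.1) than the other 4 arrays (146.6 to 172.5) and were closest to each other, and their labels lack the number that the others carry in the description. WD mouse 3 had the highest levels of antigen presentation and Leydig markers, which are given below beside the results they move with.

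Most of the family was not detected in testis. A probe was counted as detected, and entered the diet test, where it was detected on at least 3 of the 6 arrays. This held for 19 of 79 family probes (24.1%), beside 43.6% of all probes on the array. By gene, 15 of 54 were detected (27.8%, beside 59.1% of all named genes), 11 of 36 ligands and 4 of 18 receptors. On all 6 arrays, 14 probes of 11 genes were detected. Per mouse, the number of family probes detected was 20, 16 and 26 in SD mice 1, 2 and 5, against 22, 19 and 21 in WD mice 3, 4 and 6. The lowest and the highest number were both in SD mice, and they belonged to the arrays with the fewest and the most detected probes overall.

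**Figure D1:**
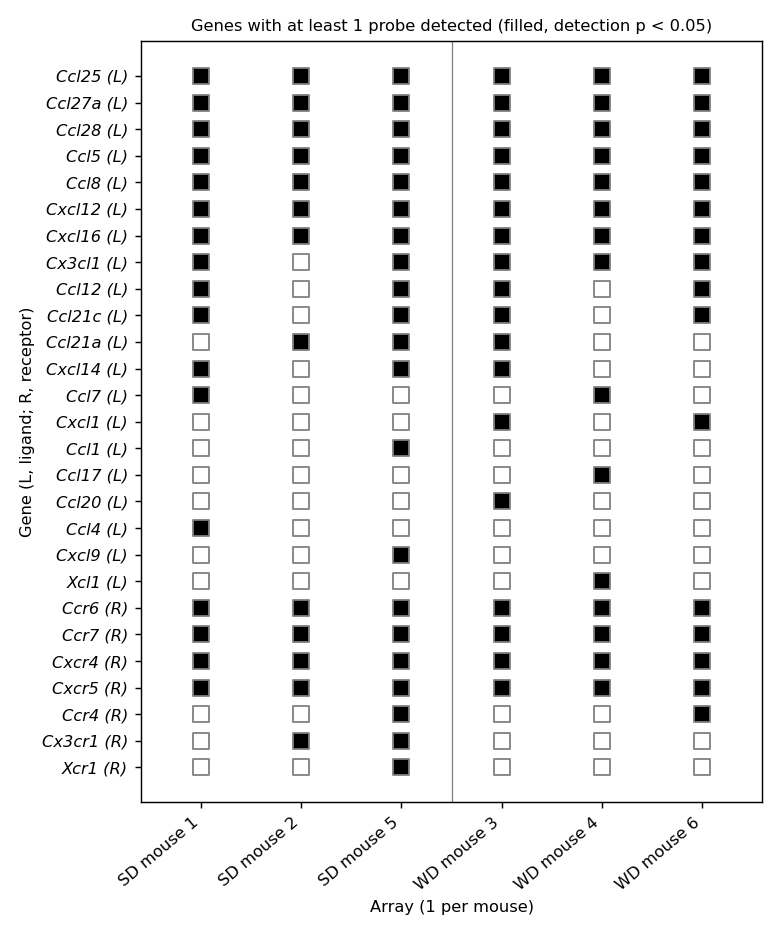
Detection of each chemokine ligand (L) and receptor (R) gene that was detected on at least 1 array, with 1 column per mouse; a filled square stands for at least 1 probe with a detection p under 0.05. The 7 ligands at the top and 4 receptors (Ccr6, Ccr7, Cxcr4 and Cxcr5) are filled in all 6 mice, and 27 further genes, not drawn, were detected in none.

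Promoter sequences were looked up for the detected and undetected genes. RefSeq promoters on GRCm38.p6, from 250 bases before to 50 bases after the start, were held for 40 of the 54 genes, of which 10 were detected genes and 20 were genes detected on no array. The 5 that bear on the results follow, with each CG pair in capitals. Ccl25 is shown at both of its starts because they differ most in CG pairs among the starts of the detected genes. Cxcl12 and its receptor Cxcr4 are shown because they were a ligand and a receptor both detected on all 6 arrays. Cxcl10, a ligand induced by interferon, is shown as a gene detected on no array.
Ccl25, upstream start, chr8:4324960-4325259, plus strand: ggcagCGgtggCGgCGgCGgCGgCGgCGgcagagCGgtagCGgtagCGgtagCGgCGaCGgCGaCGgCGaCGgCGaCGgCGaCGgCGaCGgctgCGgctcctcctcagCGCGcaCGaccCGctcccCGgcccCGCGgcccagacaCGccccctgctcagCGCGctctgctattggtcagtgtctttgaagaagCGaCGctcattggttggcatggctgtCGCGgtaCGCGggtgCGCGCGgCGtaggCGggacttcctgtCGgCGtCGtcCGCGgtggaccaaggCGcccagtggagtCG
Ccl25, downstream start, chr8:4349338-4349637, plus strand: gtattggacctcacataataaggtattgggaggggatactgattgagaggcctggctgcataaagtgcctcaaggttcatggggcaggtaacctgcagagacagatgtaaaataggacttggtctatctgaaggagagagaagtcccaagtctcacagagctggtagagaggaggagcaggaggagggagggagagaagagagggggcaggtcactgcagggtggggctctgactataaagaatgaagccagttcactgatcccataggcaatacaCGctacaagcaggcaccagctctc
Cxcl12, chr6:117168285-117168584, plus strand: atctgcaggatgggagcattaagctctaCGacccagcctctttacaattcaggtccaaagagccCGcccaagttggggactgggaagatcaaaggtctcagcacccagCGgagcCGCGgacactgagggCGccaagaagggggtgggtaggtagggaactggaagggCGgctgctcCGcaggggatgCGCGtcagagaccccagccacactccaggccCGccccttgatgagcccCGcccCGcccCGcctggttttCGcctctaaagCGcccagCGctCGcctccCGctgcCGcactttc
Cxcr4, chr1:128592250-128592549, minus strand: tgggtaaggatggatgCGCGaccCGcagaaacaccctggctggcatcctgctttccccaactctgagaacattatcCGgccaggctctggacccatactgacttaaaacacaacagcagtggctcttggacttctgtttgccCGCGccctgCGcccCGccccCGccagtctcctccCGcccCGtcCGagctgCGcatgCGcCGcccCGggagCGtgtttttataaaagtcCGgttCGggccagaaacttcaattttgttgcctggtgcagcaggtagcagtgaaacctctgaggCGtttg
Cxcl10, chr5:92348840-92349139, minus strand: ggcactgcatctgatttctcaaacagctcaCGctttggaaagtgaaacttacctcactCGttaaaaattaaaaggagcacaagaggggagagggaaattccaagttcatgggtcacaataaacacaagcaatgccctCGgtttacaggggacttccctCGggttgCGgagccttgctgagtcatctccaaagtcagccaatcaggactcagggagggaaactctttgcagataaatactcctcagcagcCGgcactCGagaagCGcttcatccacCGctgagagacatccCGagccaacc

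The upstream window of Ccl25 held 52 CG pairs and the downstream window 1, with a TATAAA match in the downstream window alone. Cxcl12 and Cxcr4 had 20 CG pairs each, and Cxcr4 also had a TATAAA match. Cxcl10 had 10 CG pairs and a match to the NF-kB consensus. The motifs were searched on both strands, TATAAA by its letters and NF-kB by its consensus, and a match describes letters only. With the start richest in CG pairs used for each gene, 4 of 10 detected family genes had 15 or more CG pairs, 0 of 20 genes detected on no array did, and 37.1% of all 27025 genes with a promoter did. The median number of CG pairs was 11 in the detected genes, 3 in those detected on no array and 8 over all genes. Among the detected genes, Ccl25, Ccl27a and Ccr6 had several starts, and with the start poorest in CG pairs the median of the detected genes was 4.5, beside 3 and 6. At the richest starts, NF-kB matches were in 1 of 10 detected genes, in 6 of 20 genes detected on no array (30%) and in 8.36% of all genes. TATAAA was in 4 of 10 and 5 of 20 of these genes, beside 13.7% of all.

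Ccl27a, Ccl28, Ccl25 and Cxcl12 were detected in every mouse, and none was called different between the diets. Ccl27a, a ligand of Ccr10 known from skin, had a level of 12.77, 12.53 and 12.52 in SD mice 1, 2 and 5, and of 12.36, 12.70 and 12.44 in WD mice 3, 4 and 6. The mice of the diets were interleaved, and the log2 difference, WD minus SD, was -0.11 with a standard error (SE) of 0.15. The other Ccl27a probe differed by -0.01. RefSeq places Il11ra1, a receptor for interleukin 11, over Ccl27a and also lists a copy named Ccl27b, and how far the probes tell these apart was not tested.

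Ccl28, the mucosal ligand of Ccr10, had a level of 9.54, 10.06 and 9.80 in SD mice 1, 2 and 5. In WD mice 3, 4 and 6 it was 9.55, 9.49 and 9.51. The WD mice lay close together and at the foot of the SD range, with SD mouse 1 between them, and the log2 difference was -0.28 ± 0.16 (SE, limma adjusted p = 0.935). It was -0.15 without SD mouse 2 and -0.41 without SD mouse 1. The other probe of Ccl28 was not counted as detected.

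Ccl25, which draws developing T cells to the thymus and T cells to the gut through Ccr9, had a level of 8.78, 9.01 and 8.71 in SD mice 1, 2 and 5, and of 8.65, 8.76 and 8.95 in WD mice 3, 4 and 6. The ranges nearly coincided and the log2 difference was -0.05 ± 0.15 (SE). Its other 2 probes differed by 0.06 and -0.16, so the 3 probes did not share a sign.

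Cxcl12 had a level of 7.94, 7.90 and 7.68 in SD mice 1, 2 and 5, and of 8.26, 7.59 and 7.71 in WD mice 3, 4 and 6. WD mouse 3 was highest and WD mouse 4 lowest, so the spread within WD enclosed all SD mice. The log2 difference was 0.01 ± 0.20 (SE). This value came from 1 of 5 Cxcl12 probes, since the other 4 were not counted as detected, and without WD mouse 3 it was -0.19.

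Ccl8, Ccl5 and Cxcl16 each had a higher mean in WD, and none passed the adjusted threshold. Of the 19 tested probes, 2, those of Ccl8 and Cxcl16, had a log2 difference of 0.5 or more in size. Ccl8, a monocyte chemokine that binds Ccr8 in the mouse, had a level of 7.18, 6.86 and 6.06 in SD mice 1, 2 and 5, and of 8.004, 7.01 and 6.83 in WD mice 3, 4 and 6. WD mouse 3 was highest and SD mouse 5 lowest, and the other 4 mice were interleaved. WD exceeded SD by a log2 difference of 0.58 ± 0.37 (SE, 1.49-fold, limma adjusted p = 0.935). Without WD mouse 3 it was 0.22, and without SD mouse 5 it was 0.26.

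Cxcl16 is made as a membrane-bound ligand of Cxcr6 and also takes up oxidised lipoprotein as a scavenger receptor. Its level was 5.69, 6.23 and 6.28 in SD mice 1, 2 and 5, against 7.05, 6.57 and 6.26 in WD mice 3, 4 and 6. WD mice 3 and 4 lay above all SD mice, while WD mouse 6 lay just under SD mouse 5. The log2 difference was 0.56 ± 0.24 (SE, 1.47-fold, limma adjusted p = 0.935). Unadjusted, this lay just under a p of 0.05, and it was over 0.05 when SD mouse 1 or 2 or WD mouse 3 or 4 was left out. Without WD mouse 3 the difference was 0.35 and without SD mouse 1 it was 0.37. The difference was 0.24 with no background correction. The other Cxcl16 probe was not counted as detected.

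Zmynd15, a testis gene of haploid germ cells, overlaps Cxcl16 in RefSeq, and strand was not known for the probes. The difference at its probes did not run the same way as that of Cxcl16. One of its 2 probes had a level of 9.16, 9.32 and 9.14 in SD mice 1, 2 and 5, and of 8.73, 9.01 and 8.85 in WD mice 3, 4 and 6, with all WD mice below all SD mice. Its log2 difference was -0.34 (limma adjusted p = 0.935), and that of the other probe was -0.07. All WD mice lay below all SD mice at 4.98% of all tested probes.

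Ccl5, which attracts T cells and monocytes with Ccr1 and Ccr3 among its receptors, had a level of 6.81, 6.30 and 5.58 in SD mice 1, 2 and 5, and of 6.80, 6.67 and 6.30 in WD mice 3, 4 and 6. SD mouse 5 stood lowest, and SD mouse 1 was level with the highest WD mouse. The log2 difference was 0.36 ± 0.30 (SE, limma adjusted p = 0.944), and it was 0.04 without SD mouse 5 and 0.65 without SD mouse 1.

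The remaining 5 tested ligand probes were detected on 3 to 5 arrays and had log2 differences from -0.18 to 0.39. They belonged to Cx3cl1, the membrane-bound ligand fractalkine, to Ccl12, a monocyte ligand of Ccr2, to the lymph node ligands Ccl21a and Ccl21c, and to the third Ccl25 probe. Ccl21a and Ccl21c are near-identical copies that differed by -0.18 and 0.19, and their probes may share signal with each other and with Ccl21b.

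Among the receptors, only Ccr6, Cxcr5, Cxcr4 and Ccr7 were detected, each on all 6 arrays. Ccr6, the receptor of Ccl20 and of some beta-defensins, had a level of 8.36, 8.53 and 8.72 in SD mice 1, 2 and 5. In WD mice 3, 4 and 6 it was 7.93, 7.997 and 8.43. WD mice 3 and 4 lay below all SD mice, and WD mouse 6 lay between SD mice 1 and 2. On average the log2 difference was -0.42 ± 0.18 (SE, limma adjusted p = 0.935), which is 1.33-fold lower in WD.

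A second probe of Ccr6 did not share this direction. It had a level of 6.09, 6.09 and 5.27 in SD mice 1, 2 and 5, and of 6.49, 5.64 and 5.91 in WD mice 3, 4 and 6. WD mouse 3 was highest there and SD mouse 5 lowest, the reverse of their places at the first probe. There the log2 difference was 0.20 ± 0.29 (SE, limma adjusted p = 0.969). The unadjusted p of the first probe was just under 0.05 with all mice, and was over 0.05 when SD mouse 2 or 5 or WD mouse 3 or 4 was left out, with differences of -0.42, -0.33, -0.32 and -0.36 in that order.

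Cxcr5, which leads B cells to follicles along Cxcl13, had a level of 6.84, 6.34 and 5.91 in SD mice 1, 2 and 5, and of 5.96, 5.58 and 6.24 in WD mice 3, 4 and 6. SD mice 1 and 2 were above all WD mice and SD mouse 5 was among them. The log2 difference was -0.44 ± 0.26 (SE, limma adjusted p = 0.935) at 1 of 3 probes, with the others not counted as detected. Leaving out SD mouse 1 gave -0.20, WD mouse 4 -0.26 and SD mouse 5 -0.67. Bcl9l, which overlaps Cxcr5 in RefSeq, had 2 probes, and neither was detected on any array.

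Cxcr4, the receptor of Cxcl12, had a level of 6.21, 5.84 and 5.96 in SD mice 1, 2 and 5, and of 5.76, 6.21 and 5.49 in WD mice 3, 4 and 6. The highest SD mouse and the highest WD mouse were level, and the log2 difference was -0.18 ± 0.20 (SE), with -0.015 when WD mouse 6 was left out, -0.07 when SD mouse 1 was and -0.38 when WD mouse 4 was. Ccr7, which leads T cells and dendritic cells into lymph nodes, had a level of 5.52, 5.91 and 5.97 in SD mice 1, 2 and 5, and of 5.70, 5.58 and 5.97 in WD mice 3, 4 and 6. The mice of the diets were interleaved and the log2 difference was -0.05 ± 0.17 (SE).

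**Figure D2:**
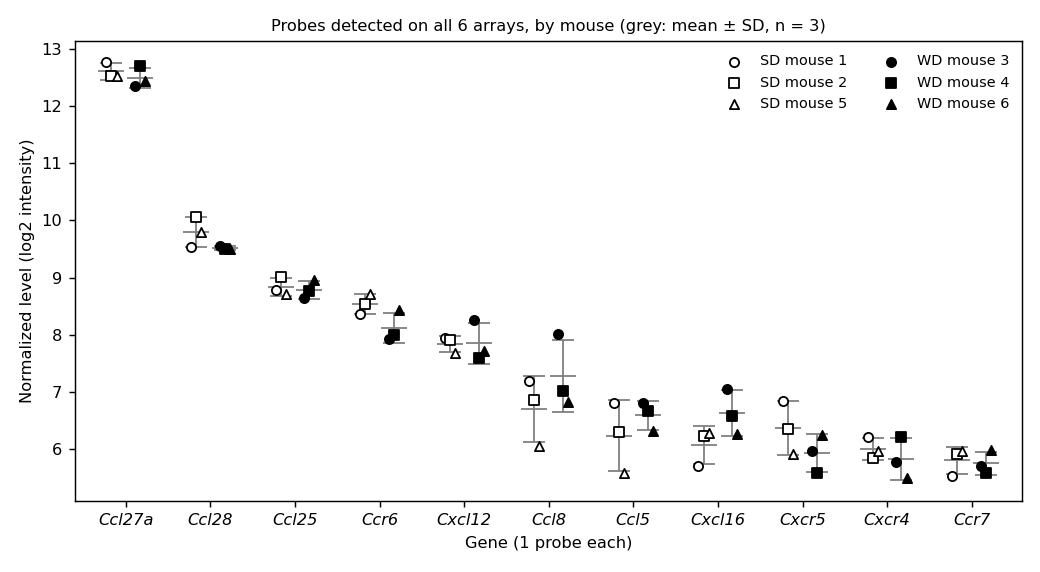
Normalized level (log2 intensity) of the probe shown for each of the 11 genes detected on all 6 arrays, with 1 point per mouse (open, SD; filled, WD) and grey bars for the mean ± SD of 3 mice. Levels may be compared between mice within a gene but not between genes; in every gene the SD and WD points overlap, and WD mouse 3 is the highest point for Ccl8, Cxcl16 and Cxcl12.

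A further 12 genes had no probe that was detected on more than 1 or 2 arrays and were not tested. The ligands among them were Ccl1, Ccl4, Ccl7, Ccl17, Ccl20, Cxcl1, Cxcl9, Cxcl14 and Xcl1, and the receptors were Ccr4, Cx3cr1 and Xcr1. Cxcl14 was detected in SD mouse 1 and WD mouse 3 by 1 probe and in SD mouse 5 by its other probe, so that neither probe reached 3 arrays. Cxcl1, a neutrophil chemokine, was detected in WD mice 3 and 6 alone, and Cx3cr1, the receptor of fractalkine on monocytes and macrophages, in SD mice 2 and 5 alone. Calls on so few arrays do not set the diets apart. At both genes the levels of the diets overlapped, and Cx3cr1 just missed the limit in WD mouse 4 (detection p 0.056).

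The 27 genes detected on no array were 16 ligands and 11 receptors. The ligands were the monocyte and macrophage ligands Ccl2, Ccl3, Ccl6 and Ccl9, the Ccr4 ligand Ccl22, and the eosinophil ligands Ccl11, Ccl24 and Ccl26. They also included the neutrophil ligands Cxcl2, Cxcl3 and Cxcl15 and the interferon-induced ligands Cxcl10 and Cxcl11. The lymphoid ligands Ccl19 and Cxcl13 and the mucosal ligand Cxcl17 were the rest. The receptors were Ccr1, Ccr1l1, Ccr2, Ccr3, Ccr8, Ccr9, Ccr10, Cxcr1, Cxcr2, Cxcr3 and Cxcr6. The mean level of the probes detected on no array lay between 4.52 and 4.96, which is the level of background here, so a low amount of these RNAs in whole testis was not detectable by these probes.

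Receptors were set beside their known ligands. Only 4 of 18 receptor genes (22.2%) and 11 of 36 ligand genes (30.6%) were detected, so few joint cases can arise. Whether the pairs differ from what these shares alone would give was not tested. Of 16 receptors compared with their known ligands on the array, 2 were detected together with a ligand, namely Cxcr4 with Cxcl12 and Ccr7 with Ccl21a and Ccl21c. Ccr6 and Cxcr5 were detected without their ligands Ccl20 and Cxcl13. In 8 cases a ligand was detected and the receptor was not, among them Ccr9 with Ccl25, Ccr10 with Ccl27a and Ccl28, Cxcr6 with Cxcl16 and Ccr8 with Ccl8. For the other 4 receptors (Ccr4, Cxcr2, Cxcr3 and Xcr1) neither the receptor nor a compared ligand was detected, and Cxcr1 and Ccr1l1 had no listed ligand on the array. Only ligands under the naming rule were compared, so Pf4, which is given further below, was left out.

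Across the family, no probe was called different between the diets. With limma, 0 of 19 tested probes had an adjusted p under 0.05, as had 0% of all 19763 tested probes. At an unadjusted p under 0.05, 1 family probe was higher in WD (Cxcl16, beside 2.56% of all tested probes) and 1 was lower (the first Ccr6 probe, beside 2.57%). There were 9 probes with a higher and 10 with a lower mean in WD, and their median log2 difference was -0.01, beside 0.00 over all tested probes (-0.0109 and -0.0008). At 0 probes did all WD mice lie above all SD mice, which held for 5.17% of all tested probes, and at 0 did they lie below, which held for 4.98%. Fewer cells of a type and less RNA per cell cannot be told apart in whole testis.

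**Figure D3:**
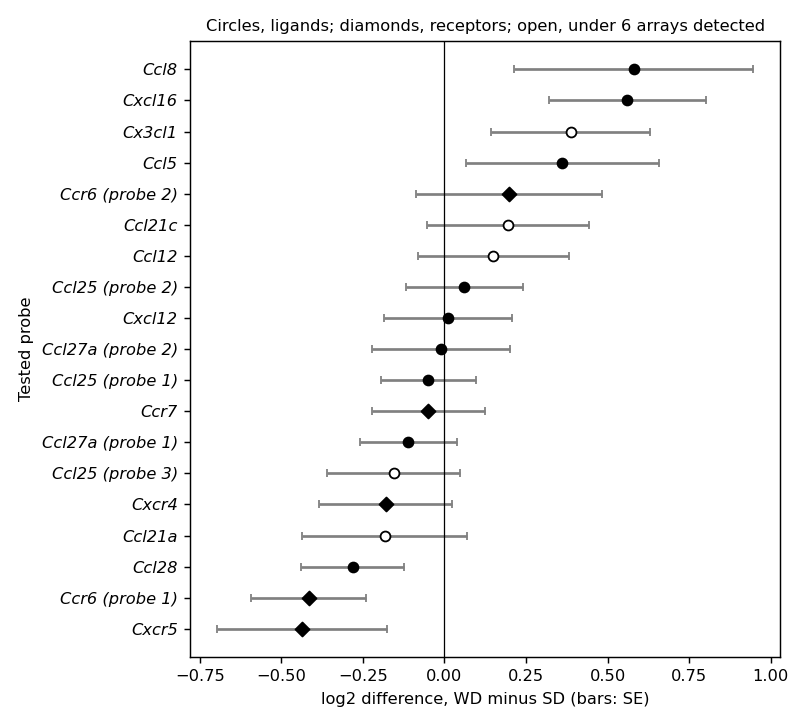
Log2 difference, WD minus SD, of the 19 tested family probes, with bars for ± 1 SE; circles are ligands, diamonds receptors, and open symbols probes detected on under 6 arrays. Ccl8 and Cxcl16 lie at 0.58 and 0.56 at the top, Ccr6 (first probe) and Cxcr5 at -0.42 and -0.44 at the bottom, and 0 probes passed an adjusted p under 0.05.

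The family was measured with a wider spread than most probes. The median SD between mice of a diet was 0.31 for the family's tested probes, beside 0.21 for all tested probes, and 68.4% of the family's tested probes had a mean level under 7, beside 38.3%. WD mouse 3 had the highest level at 5 of 19 family probes (26.3%, beside 20.1% of all tested probes), as had WD mouse 6 (26.3%, beside 15.3%). The median deviation of the family from the SD mean was 0.16, 0.06 and -0.04 in SD mice 1, 2 and 5, against -0.02, -0.07 and 0.09 in WD mice 3, 4 and 6.

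Other parts of the chemokine system were read from lists of genes. Of the atypical and scavenging receptors, which bind chemokines without Gi signalling, 2 of 7 on the array were detected, Ackr4 and Ackr2, with 0 called and a median log2 difference of -0.04. Ackr1, Ackr3, which also binds Cxcl12, and Ccrl2 were not. Genes named as chemokines or chemokine-like outside the naming rule were detected for 7 of 11, with 3 higher, 4 lower and 0 called. Of these, Pf4, a platelet chemokine, had a level of 8.23, 8.47 and 8.20 in SD mice 1, 2 and 5, and of 9.24, 8.32 and 8.55 in WD mice 3, 4 and 6, with WD mouse 3 highest. Cmtm4, a chemokine-like membrane protein, had all WD levels (6.83, 6.46 and 6.69) above all SD levels (5.76, 6.25 and 6.08), with a log2 difference of 0.63 ± 0.17 (SE, limma adjusted p = 0.851). Such an order of the diets held for 5.17% of all tested probes.

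Signalling genes behind the receptors were detected for 16 of 23, with 10 higher, 6 lower, 0 called and a median of 0.03. Grk5, a kinase that phosphorylates active receptors, had levels of 6.31, 6.18 and 6.60 in SD mice 1, 2 and 5, and of 6.95, 6.97 and 6.86 in WD mice 3, 4 and 6. The diets did not overlap at this probe, and the log2 difference was 0.56 ± 0.15 (SE, limma adjusted p = 0.801). Jak2 of this list also had all WD mice above all SD mice, which held for 5.17% of all tested probes. Plcb2, a phospholipase that Gi-coupled receptors activate, differed by -0.53 (limma adjusted p = 0.905). Its WD mice all lay below all SD mice, which held for 4.98% of all tested probes. The cytokines, receptors and transcription factors that induce inflammatory chemokines were detected for 8 of 21, with 2 higher, 6 lower, 0 called and a median of -0.11. The cytokine Il1b was detected on 4 arrays and differed by -0.09, while Tnf, Il6, Ifng and Il1a were not counted as detected. Irf1, a transcription factor of the interferon response, differed by 0.55 (limma adjusted p = 0.906), and Ifngr2, a chain of the interferon gamma receptor, by -0.40 (limma adjusted p = 0.905). The diets overlapped at Irf1, while Ifngr2 and Myd88 of this list had all WD mice below all SD mice.

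Markers of leukocytes are given because many family members are made or carried by these cells. Of the macrophage markers, 10 of 14 were detected, with 9 higher in WD, 1 lower, 0 called and a median of 0.23, while C1qa, Fcgr1, Itgam and Tyrobp were not. The median deviation of the macrophage list was -0.12, 0.05 and 0.04 in SD mice 1, 2 and 5, against 0.47, 0.17 and 0.15 in WD mice 3, 4 and 6, so all WD mice were above all SD mice. That order held for 5.17% of all single tested probes, and how often a list median takes it was not tested. The summed level of the list was 8094 to 9100 in SD and 8947 to 9607 in WD, which overlapped. This sum of unlogged levels covers every listed gene on the array, and most of it was the probe of Aif1, which differed by 0.03. The antigen presentation list was detected for 4 of 4, with a median deviation of 0.07, -0.02 and -0.05 in SD mice 1, 2 and 5, against 1.21, 0.47 and 0.08 in WD mice 3, 4 and 6, so that WD mouse 6 was level with SD mouse 1. Its summed level was 995.6 to 1089 in SD and 1120 to 2585 in WD. WD mouse 3, which had the highest level of Ccl8 and Cxcl16, also had the highest macrophage, antigen presentation, Leydig (0.65), Sertoli (0.37), peritubular (0.46) and spermatogonia (0.40) medians. For spermatogonia, SD mouse 5 came next (0.31). The peritubular list had 3 of 5 markers detected, without Tagln and Cnn1, and 0 called. All 3 had higher means in WD, though Des differed by only 0.02 ± 0.26 (SE). The peritubular medians of 0.46, 0.32 and 0.36 in WD mice 3, 4 and 6 lay above all SD mice (-0.01, -0.11 and 0.24 in mice 1, 2 and 5). As with macrophages, 5.17% of single tested probes had this order, and its share over lists was not tested. The part of these cell types in the Ccl8 and Cxcl16 values was not tested.

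Lymphocyte and granulocyte markers were mostly at background. Of the T cell markers, 2 of 7 were detected (Cd3d and Cd4), while Cd3e, Cd3g, Cd8a, Cd2 and Cd28 were not. The summed level, mostly that of Cd3d, was 825.9 to 977.7 in SD and 816.6 to 1016 in WD. None of the B cell markers on the array was detected, beside the detected Cxcr5. Of the neutrophil markers, 1 of 5 was detected, which was Mpo, and S100a8 and S100a9 were not. Mpo differed by -0.42 ± 0.14 (SE, limma adjusted p = 0.888). Its WD mice all lay below all SD mice, which held for 4.98% of all tested probes. Prf1 was the only NK cell marker of 4 to be detected, and 1 of 4 dendritic cell markers was, Zbtb46.

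**Figure D4:**
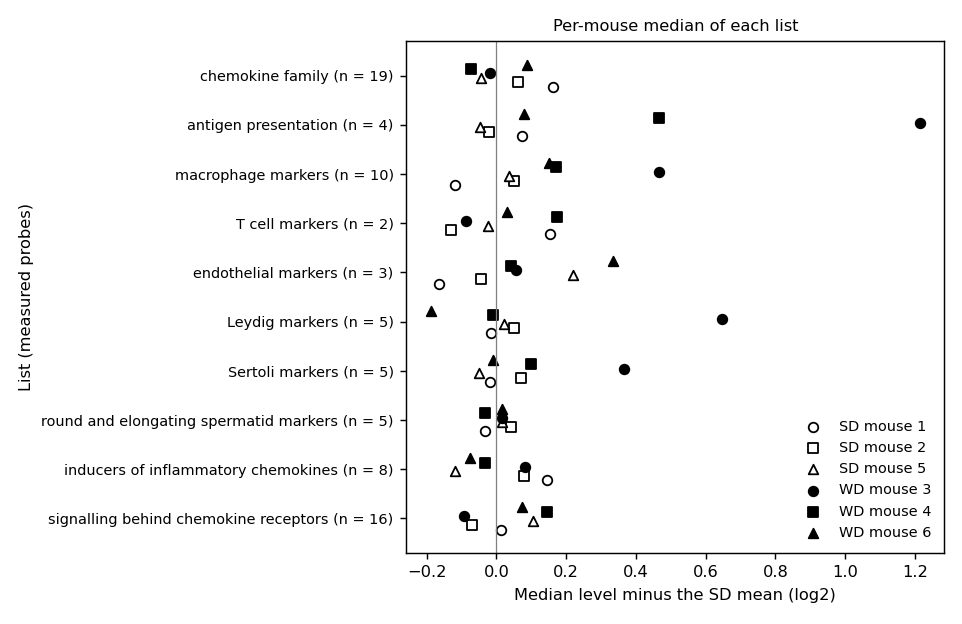
Median over the measured probes of each list of the level minus the SD mean of that probe (log2), with 1 point per mouse (open, SD; filled, WD); the number of probes stands after each list name. The chemokine family stays between -0.07 and 0.16 in all mice, while WD mouse 3 lies at 1.21 for antigen presentation, 0.47 for macrophage markers and 0.65 for Leydig markers.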

How the data were processed

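Total RNA of whole testis from 3 SD and 3 WD mice was arrayed, 1 array per mouse. The authors deposited linear bead intensity values exported from GenomeStudio (version not given in the sources used here), neither background-subtracted nor scaled. Per the file headers each array has a detection p-value column. Brighter probes have larger values in it, up to 1, so 1 minus this score was used as the detection p. A further table of deposited log2 values equalled log2 intensity, less the array's upper quartile and less a value per probe of unknown origin (remaining SD at most 0.000152), so their scale and direction are known and their centring is not. Their medians were -0.01725, -0.05636 and 0.001854 in SD mice 1, 2 and 5 against -0.01196, 0 and 0.007596 in WD mice 3, 4 and 6. They served as an alternative.

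The function neqc (limma 3.58.1, R 4.3.3) corrected background from the detection p, added an offset of 16, quantile normalized and took log2. Probes with a detection p under 0.05 on at least 3 of 6 arrays (19763 of 45281) were compared with lmFit and eBayes, and p-values were adjusted by Benjamini-Hochberg over all of them. The procedure was tested on simulated data with the spread of these arrays. It called 11.1% of 1.5-fold changes, 77.9% of 2-fold changes and 99.4% of 4-fold changes. The changes were added to normalized levels of probes drawn from all tested probes. Those had a median SD of 0.21, beside 0.31 in the family, so the shares for family probes were not measured. With 3 arrays per diet the number of arrays limits the precision. Each p-value sets a difference against the variation between these mice, which eBayes draws toward a value shared by all tested probes. A probe's gene came from the platform annotation (34885 probes with 1 symbol, 18 with several, 10378 with none), and all 79 family probes matched RefSeq (GRCm38.p6) by Entrez number with 0 symbols changed. Overlapping genes were read from the same table.

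For each gene with a probe detected on all 6 arrays, values per mouse are given for the brightest such probe, and other tested probes are given by sign and range; a further probe would be named if its unadjusted p was under 0.05. Values per mouse of the second Ccr6 probe, of a Zmynd15 probe and of the listed genes Pf4, Cmtm4 and Grk5 were added after their values were seen. Other listed genes with a low p, Myh11 among them, are not given by mouse. The naming rule of the family and the lists of pathway and cell type genes were chosen with earlier results of these data known. Alternatives changed the background correction, the scaling, the detection filter, the variance model, the handling of mice 5 and 6, and left out each mouse in turn.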

Additional observations from a re-analysis of the deposited data

How the results depend on the processing

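In all 15 alternatives to the diet test, 0 family probes had an adjusted p under 0.05, and the smallest was 0.525 (Ccr6 without WD mouse 6). The number of family probes at an unadjusted p under 0.05 and higher in WD was 0 with no background correction, with median scaling and with mice 5 and 6 as a block, and ranged from 0 to 2 with 1 mouse left out. The number lower in WD was 2 with no background correction, with the deposited log2 values and with mice 5 and 6 left out, and 0 to 2 with 1 mouse left out. It was 5 with no detection filter, where 79 family probes entered in place of 19. The share of all probes that passed was not counted in these alternatives, so the family counts have no background beside them. Counting a probe detected on at least 1 array gave 35 detected family probes of 79 in place of 19. The share of all probes at this limit was not counted.

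Direction held in each alternative for 8 of the 11 named probes. Cxcl12 turned to -0.0203 with median scaling, and Ccr7 to 0.0044 with the deposited log2 values. With 1 mouse left out, Ccl25 ranged from -0.1311 to 0.0381 and was above 0 without SD mouse 2 or WD mouse 3, Cxcl12 ranged from -0.1939 to 0.1436 and was below 0 without WD mouse 3 or SD mouse 5, and Ccr7 ranged from -0.1885 to 0.0373 and was above 0 without SD mouse 2, WD mouse 4 or SD mouse 5. The cause of these changes of sign was not tested. At an unadjusted p, Ccl28 passed 0.05 with no background correction, with the deposited log2 values and without SD mouse 1. Without background correction the differences of Ccl8, Ccl5, Cxcl16 and Cxcr5 were 0.31, 0.14, 0.24 and -0.17, and with mice 5 and 6 left out those of Cxcl16 and Cxcr5 were 0.86 and -0.83.

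No paired analysis was possible because the mouse numbers in the titles differ between the diets and the description labels share fewer than 2 numbers across them. With 3 mice per diet, and most tested family probes near background, the diet differences of single probes are known only to within the SEs given, and a p that missed the threshold does not show equal levels.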
